A study of Mus musculus with 12 samples.

Results

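The genes of the pore-forming alpha-1 subunits of voltage-gated calcium channels were examined for CpG methylation in mouse brain. The 9 genes were Cacna1a, Cacna1b, Cacna1c, Cacna1d, Cacna1e, Cacna1g, Cacna1h, Cacna1i and Cacna1s. Their sites were the CpG cytosines within the gene body or up to 2000 bp upstream that had at least 10 reads in at least 9 of the 12 libraries. This gave 2537 sites, of 4607 listed there in any library and of 1697478 sites passing the same coverage rule on the autosomes and chromosome X. They comprised 1199 promoter, 604 exon and 734 intron sites, and 1392 of the 2537 had at least 10 reads in all 12 libraries. A promoter ran from 2000 bp before to 500 bp after the start of any protein-coding transcript, and exon and intron sites were those elsewhere in the gene.

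The data were reduced representation bisulfite sequencing (RRBS) of 12 mice, 1 library per animal, at about 11 months of age. RRBS cuts DNA at CCGG and reads the ends of short fragments, so that CpG-rich stretches are covered best. Bisulfite converts unmethylated cytosines, and the methylation level is the share of reads in which a cytosine was not converted. The 4 wild-type (Wt) animals carried no transgene, and the 8 Tg2576 (Tg) animals expressed, from a prion promoter, a human APP gene with a mutation of familial Alzheimer's disease. By label the Wt animals were 3 females and 1 male, and the Tg animals were 4 of each sex. Each sample was a mixture of hippocampus and cortex, so a level is an average over neurons, glia and other cells, and a change in the cells present cannot be told apart from a change within a cell. Methylation counts hold no expression, so the labelled tissue could not be checked against marker genes.

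Voltage-gated calcium channels open when the membrane depolarises and let calcium into the cell. The alpha-1 subunit forms the pore, senses voltage and gives each channel its type. The Cav2 channels (Cacna1a, P/Q-type; Cacna1b, N-type; Cacna1e, R-type) serve transmitter release at nerve terminals. The Cav1 or L-type channels (Cacna1c and Cacna1d in brain, Cacna1s in skeletal muscle) link electrical activity to contraction or to gene transcription. The Cav3 or T-type channels (Cacna1g, Cacna1h, Cacna1i) open near the resting potential and shape rhythmic firing. In vertebrate genes, CpG-rich promoters are usually unmethylated and gene bodies are often methylated, whether or not the gene is active.

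Total coverage ranged from 33619981 reads in Tg female 4 to 131446104 in Tg female 1, summed over the listed sites. At the channel sites the median coverage of an animal was 35 reads, with 5th and 95th percentiles of 12 and 83. An even number of reads covered 73.1% of these values, and among sites with 1 to 9 methylated reads that count was even in 86.0%. In whole libraries even coverage made up 67.5% to 81.7% of values. The part of this excess in the test results was examined by halving the counts, as given below. The mean level of X sites was 20.7% to 23.0% in the libraries labelled female and 5.5% to 5.67% in Tg males, but 19.9% in the library labelled Wt male. This library therefore goes against its label, which entered the model as a covariate, and counts are given with and without it. All 9 genes are autosomal. The strands of a CpG gave like levels, with a median difference of 0.946 points over 924 channel CpGs covered on both strands.

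Promoters of the channel genes were nearly unmethylated, and their gene bodies ranged from almost none to almost full methylation. Of the 1199 promoter sites, 95.9% were under 5%, against 94.3% of the 986121 promoter sites of all protein-coding genes. The median level over the 12 animals was 0.651% at channel promoter sites and 0.662% at all such sites. Exon and intron sites of the channel genes were more often intermediate than those of other genes. Between 10% and 90% lay 54.3% of channel exon sites and 56.4% of channel intron sites, against 32.2% and 33.7% of all. Fewer were under 5%, with 31.1% of channel exon sites and 31.3% of channel intron sites against 49.9% and 52.3%. Neighbouring sites share reads and are not independent, so these shares are a description.

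**Figure D1:**
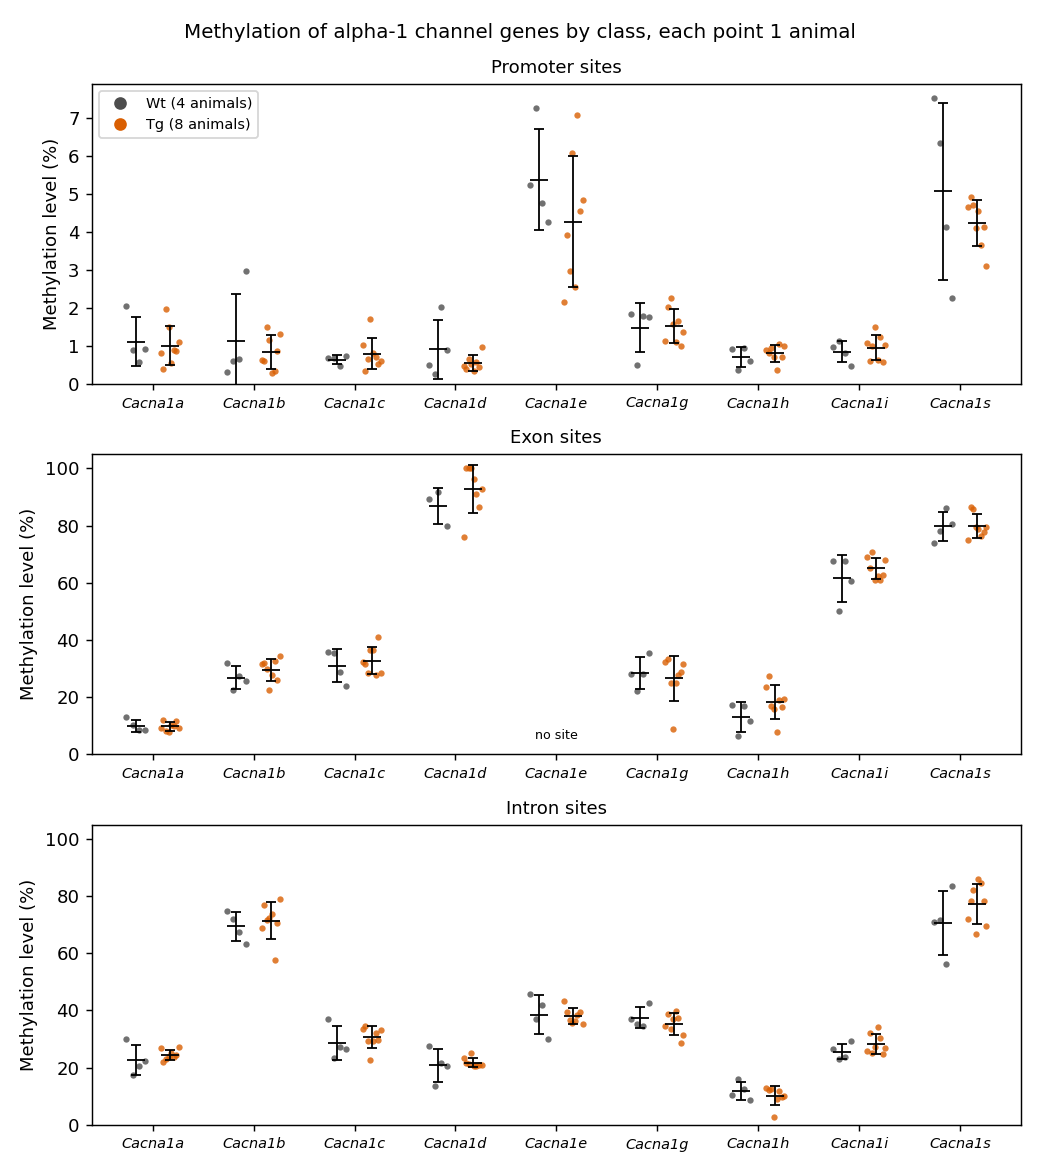
Methylation level in percent (vertical axis) of the promoter, exon and intron sites of each gene (horizontal axis), with reads summed over the sites of a class. Each point is 1 animal (grey Wt, orange Tg), and black bars are the mean ± SD. Points of the genotypes overlap in every class, promoters lie under 8%, and exon levels run from about 10% in Cacna1a to above 70% in Cacna1d and Cacna1s.

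The order of the genes differed between classes, though Cacna1s stood high in each. Channel types were not compared as groups. In promoters, Cacna1s (4.48% over all animals) and Cacna1e (4.47%) were highest and their ranges overlapped. Cacna1g followed at 1.49%, then Cacna1a at 1.06%, Cacna1b at 0.950%, Cacna1i at 0.906%, Cacna1h at 0.801%, Cacna1c at 0.705% and Cacna1d at 0.699%. Each of these 7 overlapped its neighbours in the range over animals. The lowest animal of Cacna1e, at 2.15%, lay above every animal of the other genes except Cacna1s, Cacna1g (highest 2.25%) and Cacna1b (highest 2.98%).

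In exons, the 4 sites of Cacna1d stood highest at 89.1%, followed by Cacna1s at 79.4% and Cacna1i at 64.5%. The range of Cacna1d (76.1% to 100%) overlapped that of Cacna1s (74% to 86.5%), and Cacna1i (50.2% to 70.7%) lay below both. Cacna1c at 31.4%, Cacna1b at 28.9% and Cacna1g at 28.6% overlapped each other and lay below every animal of Cacna1i. Cacna1h at 17.2% overlapped Cacna1g and Cacna1a, and Cacna1a was lowest at 9.93%. Cacna1e had no exon site outside its promoter. Among all protein-coding genes the median exon level was 56.5%, and Cacna1a stood at the 23.3th percentile of 7597 genes. The places of Cacna1g and Cacna1h did not hold when other sites entered. With a minimum of 20 reads the exon level of Cacna1h was 0.785% in Wt and 1.3% in Tg, below that of Cacna1a at 6.59% and 7.31%. With promoters of 1000 bp either side of a start, it was 76.9% and 73.6% in Cacna1h and 68.8% and 66.2% in Cacna1g.

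In introns, Cacna1s (73.4%, 4 sites) and Cacna1b (69.7%, 18 sites) overlapped and lay above every animal of the other 7 genes. Cacna1e at 38.5%, Cacna1g at 35.8%, Cacna1c at 30.5%, Cacna1i at 27.0%, Cacna1a at 24.2% and Cacna1d at 21.6% each overlapped the next. Cacna1h was lowest at 10.9%, with a range of 2.61% to 16.0% that reached the lowest animal of Cacna1d at 13.6%. The median over 10060 protein-coding genes was 29.1%. These class levels depended on which sites entered. Over sites covered in all 12 libraries the Cacna1c intron level fell to 11.4% in Wt and 13.3% in Tg, from 28.7% and 30.6%.

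**Figure D2:**
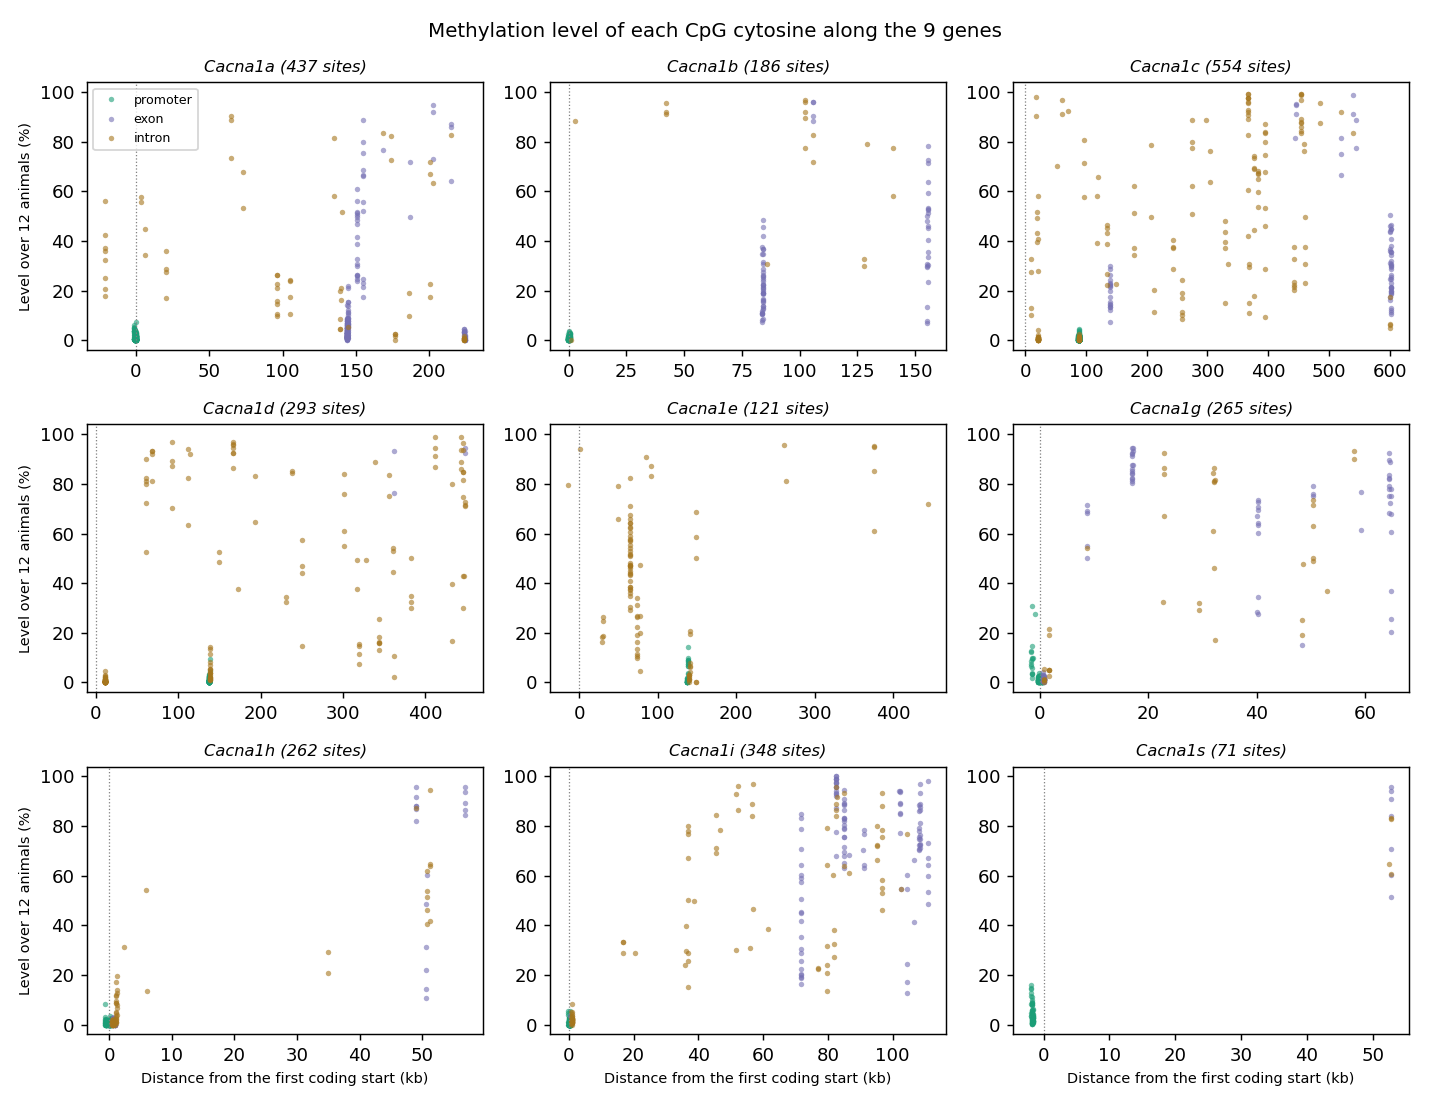
Level over the 12 animals in percent (vertical axis) of each channel site against its distance in kb from the first coding start of its gene (horizontal axis, dotted line at the start). Green, violet and brown points are promoter, exon and intron sites. Levels sit near 0 in dense clusters at starts, and also at one cluster about 144 kb into Cacna1a and near its 3' end, while sites between clusters reach up to 100%.

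Among the Cav2 genes, Cacna1a (chr8:84388440-84640246, plus strand, mm10) held 437 sites. Its 167 promoter sites stayed at or under 7.41%. Its exons were low because 143 of the 202 exon sites lay in a single CpG-rich stretch over exon 19 of 47 (chr8:84559191-84559704), with a level of 4.29%. This coding stretch lies 144 kb from the nearest coding start, and it held 14.8 CpGs per 100 bp with its flanks. Exon 19 of Cacna1b, the N-type gene, was the other large exonic stretch (chr2:24679082-24679354, 44 sites). It was less CpG-rich, at 9.09 per 100 bp, and more methylated, at 22.5%. In the 12 animals the Cacna1a stretch ranged from 2.11% to 8.08% and the Cacna1b stretch from 14.2% to 28.0%, so they did not overlap. The first 280 bases of the Cacna1a stretch and the whole Cacna1b stretch are shown because they are the same exon number in related genes with different levels. Both read 5' to 3' on the gene's strand with CpGs in capitals.
Cacna1a exon 19, chr8:84559191-84559470, plus strand, mm10: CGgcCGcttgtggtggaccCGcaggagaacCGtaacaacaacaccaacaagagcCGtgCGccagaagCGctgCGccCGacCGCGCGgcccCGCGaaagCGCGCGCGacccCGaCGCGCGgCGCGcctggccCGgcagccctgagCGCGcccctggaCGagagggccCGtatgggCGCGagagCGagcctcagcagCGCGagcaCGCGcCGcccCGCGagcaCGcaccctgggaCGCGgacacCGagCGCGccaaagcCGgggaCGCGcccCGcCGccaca
Cacna1b exon 19, chr2:24679082-24679354, minus strand, mm10: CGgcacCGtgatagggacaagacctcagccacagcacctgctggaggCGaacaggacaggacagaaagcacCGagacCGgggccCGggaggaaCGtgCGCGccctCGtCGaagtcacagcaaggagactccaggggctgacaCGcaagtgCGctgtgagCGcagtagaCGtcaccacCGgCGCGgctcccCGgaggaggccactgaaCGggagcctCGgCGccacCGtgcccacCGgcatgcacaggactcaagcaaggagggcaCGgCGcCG

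The printed part of Cacna1a held 50 CpGs in 280 bases and that of Cacna1b 27 in 273. Among 89 sites in the first the level was 2.57%, with no site above 8.40%. Among the 44 sites in the second, single sites ran from 7.26% to 48.6%. Toward its 3' end Cacna1a held further low stretches. In one spanning exon 46 (chr8:84638708-84639010, 20 sites) the level was 1.55%, and in one in the untranslated part of exon 47 (10 sites) it was 1.04%. Cacna1b (chr2:24603887-24763152, minus strand) had 96 promoter sites at or under 3.83%. The R-type gene Cacna1e (chr1:154390731-154884501, minus strand) had 121 sites. All 30 of its promoter sites belonged to the starts inside the gene and none to the first coding start at position 154864067. A stretch centred at -498 bp from an internal start (18 sites) had a level of 0.518%, and a stretch centred at 143 bp (12 sites) had 7.83%.

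Among the L-type genes, Cacna1c (chr6:118587240-119196418, minus strand) had 554 sites, the most of any. It had 10 coding starts, and a stretch around one group of them (321 sites over 1654 bp) had a level of 0.704%, with every one of the 305 promoter sites under 5%. Cacna1d (chr14:30039939-30491455, minus strand) had 293 sites. The 114 sites of its largest start stretch, at 16.9 CpGs per 100 bp the most CpG-rich of all 115 stretches, had a level of 0.633%. In both genes, low intronic sites coincided with the start of another gene on the opposite strand. In Cacna1c these were 24 sites at 0.635% and 6 at 0.579% around the start of Dcp1b (chr6:119175253-119221616), and in Cacna1d they were 63 sites at 0.625% around the start of Dcp1a (chr14:30479535-30527063). Both neighbours encode mRNA-decapping proteins. Cacna1s (chr1:136052750-136119822, plus strand), the muscle gene, had 71 sites. Its 60 promoter sites all lay in 1 stretch centred at -1762 bp from the start, which also lies in Ascl5 (chr1:136050804-136051370), so its promoter level of 4.48% belongs to both genes. The nearest site lay 1622 bp from a Cacna1s start.

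Of the T-type genes, Cacna1g (chr11:94408391-94474198, minus strand, 265 sites) had 160 sites around its starts at 0.957%, and 15 sites centred at -1454 bp at 9.01%. One of these was the highest promoter site of all 9 genes, at 30.8%. Cacna1h (chr17:25374285-25433783, minus strand, 262 sites) had 230 of its sites within one start stretch of 1978 bp at 1.42%. Cacna1i (chr15:80287238-80398279, plus strand, 348 sites) had 176 sites in its start stretch at 1.29%, and the highest exon methylation among genes with more than 10 exon sites. In its exon 12 stretch (22 sites) the level was 92.3%.

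Across the 115 stretches (at least 3 sites, each at most 300 bp from the next), methylation was low where CpGs were dense. In 23 stretches the level was under 10%, and their median density was 8.48 CpGs per 100 bp, with a range of 1.51 to 16.9. The 72 stretches from 10% to 80% had a median of 2.75, and the 20 above 80% had a median of 3.03. Densities overlapped between these groups. A window of RefSeq promoter sequence (GRCm38.p6, 250 bases before to 50 after a start) was given for 6 of the 9 genes, in 9 windows. Sites fell in 4 of these windows and none in the other 5. Of these 9 windows 5 held CCGG, as did 52.8% of all 32851 windows, and 4 held the GC box GGGCGG on either strand, as did 35.7% of all. None held the cAMP response element TGACGTCA (1.79% of all) or the E-box CACGTG (7.15% of all). The bases upstream of the start of Cacna1i and of an internal start of Cacna1e are shown, 250 bases each, CpGs in capitals. Sites passed the coverage rule in the Cacna1i bases and not in the Cacna1e bases.
Cacna1i promoter, chr15:80286988-80287237, plus strand, GRCm38.p6: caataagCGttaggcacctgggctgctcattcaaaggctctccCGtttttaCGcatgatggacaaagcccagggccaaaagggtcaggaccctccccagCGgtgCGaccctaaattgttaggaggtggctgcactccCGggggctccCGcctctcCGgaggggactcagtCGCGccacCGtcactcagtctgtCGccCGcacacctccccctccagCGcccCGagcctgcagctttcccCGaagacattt
Cacna1e promoter, chr1:154725921-154726170, minus strand, GRCm38.p6: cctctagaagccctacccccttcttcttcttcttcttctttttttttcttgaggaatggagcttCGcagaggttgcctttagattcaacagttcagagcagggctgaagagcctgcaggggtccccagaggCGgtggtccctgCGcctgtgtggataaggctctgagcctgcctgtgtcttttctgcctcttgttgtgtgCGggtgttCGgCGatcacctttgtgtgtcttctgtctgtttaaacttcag

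The Cacna1i window held 16 CpGs and 2 CCGG sequences, and its 18 sites had a level of 0.932%. The Cacna1e window held 6 CpGs and no CCGG, and no site in it passed the coverage rule.

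Genotype was then compared at each site, which asks whether channel genes were methylated differently in Tg animals. Over the 12 libraries, 60.9% of the channel sites called by the binomial model were higher in Tg, against 54.4% of all called sites. Without the library labelled Wt male both balances turned, as given below. The called share of channel promoter sites, 1.08%, was near that of all protein-coding promoter sites, 0.953%. A site was called differentially methylated (DMS) where the read-weighted levels differed by at least 10 points and a logistic regression on genotype and sex gave an adjusted p below 0.1. Of the 2537 sites, 169 (6.66%) were DMS, against 4.39% of all sites tested. In Tg, 103 were higher and 66 lower, against a background of 2.39% higher and 2% lower. The median size was 15.2 points and the largest 41.6.

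By class, 13 promoter sites (1.08%) were DMS against 0.953% of promoter sites of all protein-coding genes, with 1 higher and 12 lower in Tg. Exons held 66 (10.9%) against 7.36%, with 45 higher and 21 lower. Introns held 90 (12.3%) against 7.81%, with 57 higher and 33 lower. Levels differed between the sets as well. When only sites from 10% to 90% were taken, the DMS share was 17.7% of channel exon sites against 19.5% of all, and 20.3% of channel intron sites against 20.4%. In promoters it was 1 of 13 channel sites (7.69%) against 21.2%. Among sites of like level, the DMS share of channel exons and introns was thus near the background. By gene it ran from 3.05% (Cacna1h, 8 DMS) and 4.23% (Cacna1s, 3) to 9.61% (Cacna1a, 42) and 11.6% (Cacna1e, 14). Cacna1c had 28 DMS, of which 22 were higher, Cacna1i had 28 with 19 higher, and Cacna1d had 19 with 13 higher. Cacna1a had 18 higher and 24 lower, Cacna1g 6 and 9, and Cacna1b 9 and 3.

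**Figure D3:**
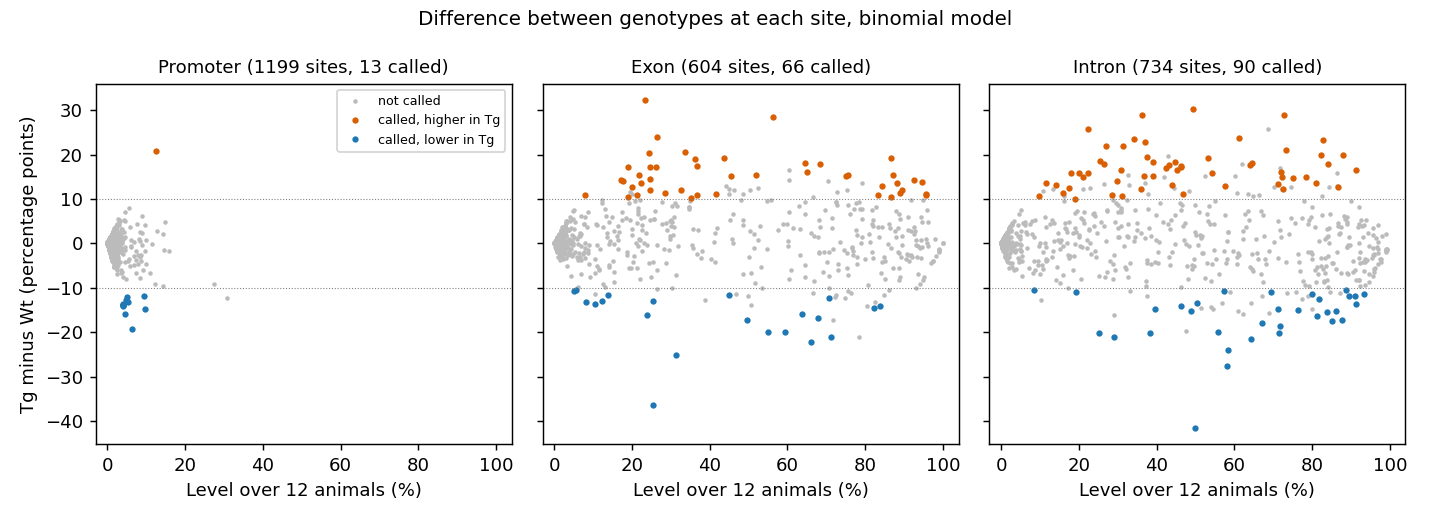
Difference in level between Tg and Wt in percentage points (vertical axis) against the level over all 12 animals in percent (horizontal axis) for promoter, exon and intron sites. Orange and blue points are DMS higher and lower in Tg, grey points are other sites, and dotted lines mark 10 points. The 13 promoter DMS include 12 below the lower line, whereas DMS of exons and introns lie on both sides over the whole range of levels.

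These calls did not survive a test that allowed animals of a genotype to differ. The overdispersion model, the same regression with a dispersion per site and an F test, called 0 of the 2537 sites and 0% of all sites, with a smallest adjusted p of 0.512. Unadjusted p-values under 0.05 were found at 252 channel sites (9.93%), against 9.41% of all sites. Limma on logit levels called 0 channel sites and 0 of all sites. Its unadjusted p was under 0.05 at 147 channel sites (5.79%) and at 4.91% of all sites. The median dispersion was 1.78 at channel sites and 3.47 at channel DMS, where 1 is counting error alone. With the read counts halved, the binomial model called 9 channel sites (6 higher, 3 lower) and 0.389% of all sites.

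The balance of directions moved with single libraries, among all sites as well as channel sites. Without the library labelled Wt male there were 132 DMS, of which 58 were higher and 74 lower in Tg. This was 5.21% of channel sites, against 3.64% of all sites, where 29782 were higher and 31575 lower. In the 7 animals labelled female there were 180, with 74 higher and 106 lower. This was 7.14% against 5.1% of all sites, where the balance lay the other way with 44427 higher and 41478 lower. Without Wt female 1 there were 197, with 146 higher and 51 lower. This was 7.84% against 5.32% of all sites, with 55111 higher and 34713 lower. Of the 169 DMS, 100 had the opposite strand of the same CpG tested. The difference there had the same sign in 45 (45.0%), against 57.8% for all DMS. The opposite strand was a DMS itself in 16 (16%), against 19.7% for all DMS.

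**Figure D4:**
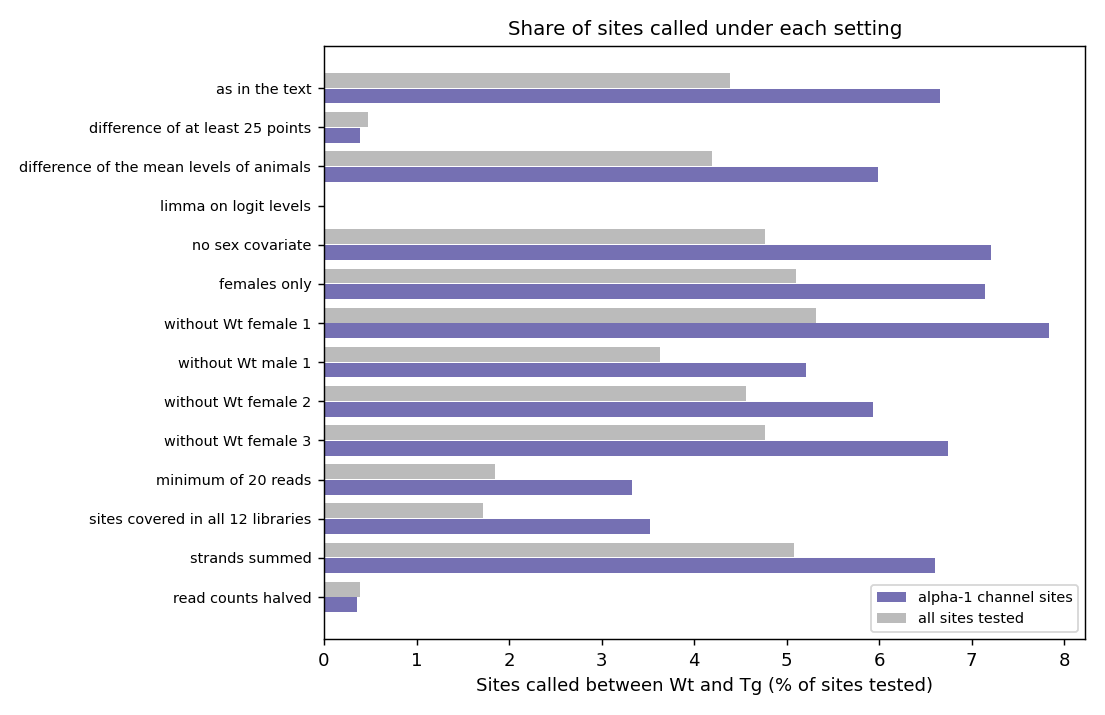
Share of sites called between Wt and Tg in percent (horizontal axis) for the channel sites (violet) and for all sites tested (grey). Rows are settings of the binomial model, without those that leave out a Tg animal, and limma. The channel share is 6.66% as reported and falls to 0.355% with halved read counts and to 0 with limma.

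Among the animals that covered a site, Wt lay wholly above or wholly below Tg at 16 channel sites (0.631%), against 0.248% of all sites. Of these 16, 13 were lower in Tg. Of the 16, 10 lay in the Cacna1a promoter within 1 fragment about 1 kb before the start, covered there by 2 Wt and 7 Tg animals. These 10 were read together, so the 16 are not separate observations and their share is not read as an excess. The fragment with its flanks is shown because these 10 sites make up most of the promoter DMS. Its sequence on the gene's strand has CpGs in capitals.
Cacna1a upstream fragment, chr8:84414314-84414414, plus strand, mm10: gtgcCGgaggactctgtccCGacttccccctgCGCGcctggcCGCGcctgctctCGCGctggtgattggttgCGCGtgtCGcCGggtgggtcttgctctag

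All 10 DMS were on the minus strand, between positions 84414334 and 84414394, and they were read together. In Wt female 1 the 10 sites had 82 to 84 reads each, and 8 of the 10 had the same count of 12 methylated reads. In Wt female 2 they had 16 to 18 reads, and 9 of the 10 had 2 methylated reads. The fragment level was 15.4% in Wt female 1 and 11.9% in Wt female 2. Wt female 3 and the library labelled Wt male did not cover these sites on that strand. Of the 8 Tg animals, 7 covered them, with levels from 0% to 1.36%. The 10 calls are thus 1 observation in 2 Wt animals. On the plus strand of the same stretch 10 sites were tested, with differences from -6.71 to 3.17 points, and 0 were DMS.

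Stretches of neighbouring sites gave few further runs of calls in one direction. Tested as summed reads with at least 5 points of difference, 24 of 115 channel stretches (20.9%) were called by the binomial model, 18 higher and 6 lower, against 18% of 70870 stretches genome-wide. The overdispersion model called 0 of them and 0% genome-wide, and 3 of the 115 (2.61%) had an unadjusted p under 0.05, against 5.33% genome-wide. The smallest, 0.0151, was that of the stretch at the Cacna1a start (76 sites), where the 4 Wt libraries averaged 0.539% ± 0.160 (SD) and the 8 Tg animals 1.26% ± 0.712 (SD), with overlapping ranges. The other 2 lay in a Cacna1d intron and over exon 40 of Cacna1a. Runs in which every site was a DMS occurred in introns of Cacna1c and Cacna1d, all higher in Tg. They were picked for their DMS share, and how often such runs occur genome-wide was not counted. Both are shown with 20 bases on either side.
Cacna1c intronic stretch, chr6:119061578-119061681, minus strand, mm10: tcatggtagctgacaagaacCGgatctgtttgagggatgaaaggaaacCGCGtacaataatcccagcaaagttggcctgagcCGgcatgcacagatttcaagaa
Cacna1d intronic stretch, chr14:30130269-30130346, minus strand, mm10: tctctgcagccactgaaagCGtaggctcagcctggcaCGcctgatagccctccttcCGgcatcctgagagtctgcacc

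The Cacna1c stretch has 4 CpGs, and all 6 tested cytosines, 3 on each strand, were DMS. Its level was 61.5%, 12.9% and 28.6% in Wt females 1 to 3 and 22.2% in the library labelled Wt male. In the 8 Tg animals it ran from 14.5% in Tg female 3 over a median of 44.1% to 71.6% in Tg female 1. The genotypes overlapped over most of their range, and the overdispersion-model p of the stretch was 0.110 (unadjusted). The Cacna1d stretch had 3 tested sites, all on the plus strand. Its level was 52.5%, 13.3% and 47.9% in Wt females 1 to 3, and 23.1% in the library labelled Wt male. In the 6 Tg animals that covered it the level ran from 48.2% over a median of 61.3% to 90%, so only Wt female 1 reached the Tg range. Its overdispersion-model p was 0.0332 unadjusted and 0.921 adjusted over all stretches by Benjamini-Hochberg.

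A stretch over exon 40 of Cacna1a (chr8:84629881-84629950, 4 sites) was similar. Wt female 1 had 92.6%, and the other Wt libraries had 58.5% to 62.4%. The 8 Tg animals had 81.7% to 100%, with a median of 87.0%. Again 1 Wt animal lay within the Tg range, and the unadjusted overdispersion-model p was 0.0286. In exon 19, 6 of the 144 sites of the Cacna1a stretch were DMS, all lower in Tg. Among exon sites of all protein-coding genes the share was 7.36%. Over the Cacna1a stretch the 4 Wt libraries averaged 4.53% ± 2.51 (SD) and the 8 Tg animals 3.97% ± 1.38 (SD). The Cacna1b stretch had 8 DMS among 44 sites, 7 higher and 1 lower. It averaged 20.4% ± 4.76 (SD) over the 4 Wt libraries and 23.7% ± 2.96 (SD) over the 8 Tg animals. The unadjusted overdispersion-model p was 0.673 for the Cacna1a stretch and 0.142 for the Cacna1b stretch.

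**Figure D5:**
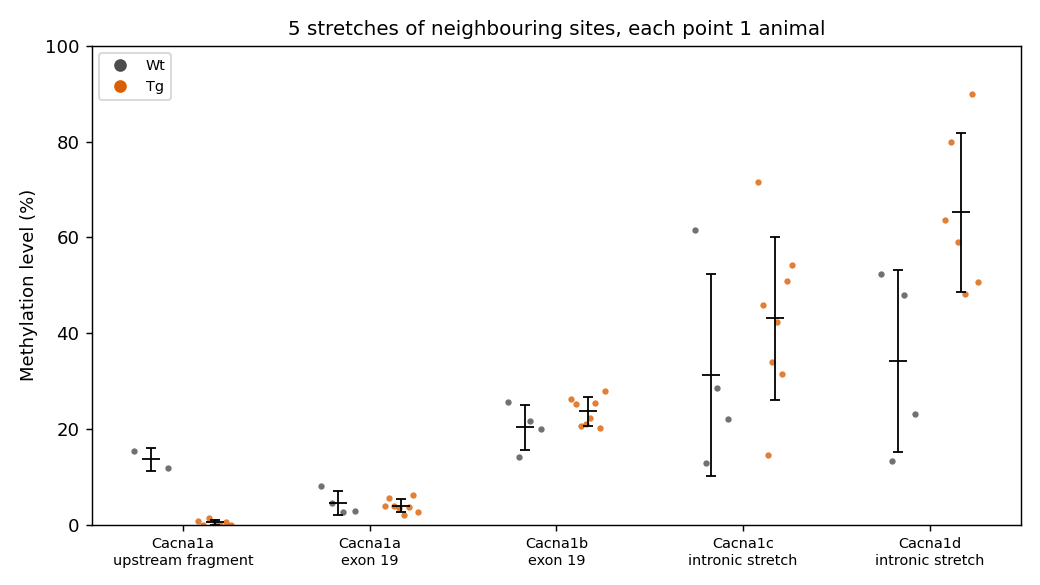
Methylation level in percent (vertical axis) of 5 stretches of neighbouring sites (horizontal axis), with 1 point per animal that covered it (grey Wt, orange Tg) and black bars for the mean ± SD. Only 2 Wt animals are shown for the Cacna1a upstream fragment, at 15.4% and 11.9%, and the genotypes overlap in each of the other 4 stretches.

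Whole gene classes were compared next, with reads summed over all sites of a class and at least 5 points required. The binomial model called 2 of 26 classes (7.69%), the exons of Cacna1h and the introns of Cacna1s, against 10.8% of all 39118 gene classes. The overdispersion model called 0 of the 26 and 0% of all. Limma on the mean level over sites called 0 of the 26 and only 2 of all 39118. In no class did the ranges of Wt and Tg animals lie apart.

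The exons of Cacna1h, a T-type gene, had 17.3%, 6.48% and 16.9% in Wt females 1 to 3 and 11.5% in the library labelled Wt male. In the 8 Tg animals the level ran from 7.83% over a median of 18.1% to 27.4%. The pooled difference was 5.76 points, with an unadjusted overdispersion-model p of 0.0349 and an adjusted p of 0.928. It went with the share of reads at distant sites. The 31 exon sites within 5 kb of the start had a level of 0.948%, and the 17 farther sites had 74%. Of an animal's exon reads, the farther sites took 6.0% in Wt female 2, 16.6% to 24.8% in the other Wt libraries and 13.8% to 33.1% in Tg. At the farther sites alone, Wt libraries averaged 76.9% ± 13.1 (SD, n = 4) and Tg animals 73.6% ± 8.36 (SD, n = 8). With each site weighted equally, the exon level was 23.2% in Wt and 23.3% in Tg, and the call was lost. It was also lost without Wt female 2 (4.05 points), Tg female 1 (4.66 points) or Tg female 2 (4.87 points).

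The introns of Cacna1s had only 4 sites in 1 stretch. They had 70.9%, 71.8% and 56.4% in Wt females 1 to 3 and 83.5% in the library labelled Wt male. In Tg the level ran from 66.7% over a median of 78.3% to 86.1%, so 3 of the 4 Wt libraries lay inside the Tg range. The pooled difference was 7.82 points, the unadjusted overdispersion-model p was 0.363, and without Wt female 3 the difference was 1.04 points and the call was lost. The call was also lost, with differences of 6.65 to 8.77 points, without Tg female 1, 2 or 3 or Tg male 1 or 2.

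Single sites were named by rule, up to 2 DMS per gene in the order of the overdispersion-model p. Site by site, adjusted p-values of the binomial model (Benjamini-Hochberg over all sites) lay under 0.1, and no adjusted overdispersion-model p did. In Cacna1i the exonic site chr15:80391621 (plus strand) had 9.52% to 16.7% in the 4 Wt libraries. In 7 Tg animals it ran from 10.5% over a median of 35.1% to 50%, with 1 Tg animal inside the Wt range and a difference of 20.4 points. Its unadjusted p in the overdispersion model, fitted across all sites, was 0.00428 (adjusted p = 0.512). In Cacna1h the intronic site chr17:25432471 (plus strand) had 4.65% to 7.69% in Wt. Of the 8 Tg animals, 6 had 14.8% to 26.7% and 2 had 0%.

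In Cacna1c the intronic site chr6:118802236 (minus strand) had 57.9% to 81.8% in the 4 Wt libraries. In Tg it ran from 74.2% over a median of 92.6% to 100%, a difference of 17.9 points. Its unadjusted overdispersion-model p was 0.0117 (adjusted p = 0.520). On the other strand Tg was 5.98 points higher. In Cacna1b the exon 19 site chr2:24679186 (minus strand) had 4.35% to 21.4% in Wt and 10% to 42.9% in Tg, and the opposite strand differed by 1.64 points. Here the ranges overlapped by the lower Tg animals.

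At 3 named sites the groups did not overlap, each with animals missing. In Cacna1d the exonic site chr14:30042944 (plus strand) was 100% in the 6 Tg animals that covered it and 80.8%, 87.5% and 90.9% in 3 Wt libraries. In Cacna1e the intronic site chr1:154715819 (minus strand) had 66.7% to 100% in 3 Wt libraries and 20% to 60.0% in 6 Tg animals, the largest difference of all at -41.6 points. It had only 10 to 20 reads per animal. The third was one of the 10 Cacna1a fragment sites. In Cacna1g the exonic site chr11:94409377 (plus strand) had 13.3% to 73.7% in Wt and 0% to 40% in 6 Tg animals, while on the other strand Tg was 17.4 points higher.

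In Cacna1a the exon 19 site chr8:84559662 (minus strand) had 12.7% and 17.6% in Wt females 1 and 3, 0% in the other Wt libraries and 0% in all 8 Tg animals. With both strands summed its difference was 0.26 points in place of -10.6. In Cacna1s the exonic site chr1:136105496 (plus strand) had 58.3% to 85.7% in Wt and 42.9% to 83.3% in Tg, with overlap over most of the range. Of the 21 named sites that were DMS, 4 of them named for their spread, 17 were no longer called with halved reads and 21 with limma.

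At the sites nearest a start the genotype means were at most 6.13%. This highest mean was that of Wt in Cacna1e (107 bp from an internal start), where Wt females 1 to 3 had 3.23%, 0% and 10.6% and the library labelled Wt male had 10.7%. The 8 Tg animals ran from 0% to 5.56% there, with a mean of 1.35%. The pooled difference of -5.96 points was under the 10 points of a DMS, and the unadjusted overdispersion-model p was 0.0325. In Cacna1b (6 bp from the start) all 4 Wt libraries had 0%, and 2 of 8 Tg animals were above 0, at 10% and 5.71%. In Cacna1c (3 bp) 1 of 12 animals was above 0, at 4.65%, and in Cacna1i (85 bp) 2 of 12 were, at 2.56% and 15%. Sites with the largest spread between animals showed how far single cytosines can move within a genotype. In Cacna1a the exonic site chr8:84569996 (plus strand) ran from 0% to 50% in Wt and from 0% to 92.9% in Tg, with an SD of 33.5 points over the 12 animals. In Cacna1i the exonic site chr15:80398135 (plus strand) ran from 22.2% to 100% in Wt and from 0% to 100% in Tg, with means of 55.4% in both.

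Genes related to the alpha-1 subunits were read beside them. The 16 genes listed as auxiliary subunits (Cacna2d1 to Cacna2d4, Cacnb1 to Cacnb4, Cacng1 to Cacng8) had 2436 sites, and 135 (5.54%) were DMS, 80 higher and 55 lower. Cacna2d2 had the most, with 25 of its 294 sites, of which 20 were higher. Shares were larger in genes with fewer sites, among them Cacng5 (9 of 31) and Cacna2d4 (13 of 107). The calcium release channels of internal stores (Ryr1 to Ryr3, Itpr1 to Itpr3) had 69 DMS among 967 sites (7.14%), 46 higher and 23 lower. Presynaptic partners that tie channels to vesicle release (Rims1, Rims2, Stx1a, Snap25, Syt1, Unc13a) had 50 among 1103 (4.53%), 24 higher and 26 lower. The background was 4.39%, as given above. Median promoter levels were 1.31%, 0.999% and 1.18% in these lists.

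The retinal alpha-1 gene Cacna1f lies on chromosome X and was kept out of the members' counts. Its 16 promoter sites had 18.9% to 26.6% in the 3 Wt females, 25.1% in the library labelled Wt male, 23.1% to 30.3% in Tg females and 0% to 1.89% in Tg males. The library labelled Wt male again lay with the libraries labelled female.

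The 6 members with at least 5 sites in each class were compared with 3566 protein-coding genes on the levels of the 3 classes, by Euclidean distance in points. Nearest to Cacna1a were Fam13c (0.887), Wdr46 (1.12) and Kremen2 (1.31), and nearest to Cacna1b were Adamts20 (2.69), Arhgap24 (3.75) and Dis3l (4.48). Nearest to Cacna1c were Kif17 (2.47), Wwc1 (2.80) and Parvb (3.03). Among T-type genes, Syne1 (1.20), Kif5c (1.29) and Gfra1 (1.85) were nearest to Cacna1g, Ctnnd2 (0.937), Ppp2r2c (1.05) and Nfib (1.20) to Cacna1h, and Tet3 (1.34), Dscam (1.36) and Inava (1.47) to Cacna1i. No alpha-1 gene was among the 3 nearest of another. Distances were not computed with other promoters or read minimums, under which the exon levels of Cacna1g and Cacna1h moved widely, as given above.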

How the data were processed

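RRBS libraries were made and sequenced by a commercial service for the authors, aligned to mm10 with Bismark and read into methylKit in CpG context, per the submitters' notes and the methods of the study. The deposited tables give, per CpG cytosine and strand, read counts: coverage, methylated and converted, with a minimum coverage of 10 and 1 table per animal. Sites of autosomes and chromosome X were joined over 12 libraries (4 Wt, 8 Tg), and 11 duplicated positions were dropped. No pair of libraries had equal counts at more than 4.06% of shared sites, so each was 1 replicate. Coverage summed over the listed sites was 33619981 to 131446104 per library, which is not a number of reads. With 10 to 142 reads at a channel site single levels are coarse. Reads carry no molecular identifiers.

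Sites needed at least 10 reads in 9 libraries, 2 of them Wt. Annotation was GENCODE vM21 basic (mm10). Genotype was tested over all 1697156 sites with Python 3.11.15 by logistic regression on genotype and sex (likelihood-ratio test), and again with an overdispersion parameter of at least 1 and an F test. Benjamini-Hochberg adjustment ran over all sites, or over 39118 gene classes of at least 3 sites. Limma 3.58.1 (pseudocount 1) was an alternative, as were other read minimums, site sets, promoters, covariates and single animals left out. Named sites were up to 2 DMS per gene, by smallest overdispersion-model p and 1 within 1000 bp, plus the start-nearest and most variable site covered in all 12 libraries. Code was tested on simulated data. The members and lists were chosen with earlier results of these data known. Halved counts and stretches were added after the data were seen. Sequences came from GRCm38.p6. Replicate numbers only name animals.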

Additional observations from a re-analysis of the deposited data

Results flagged for a closer look

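Of 107 series of class and site levels tested by Dixon's criterion within a genotype, 18 had an animal set apart from the others of its genotype. For class levels chance marks about 1 series in 20. That rate does not apply to the sites, which were chosen by their spread or p, or lie near 0 where 1 methylated value sets an animal apart. Among class levels, the library labelled Wt male had the highest Cacna1b promoter level in Wt (2.98%), and Wt female 2 the lowest Cacna1g promoter level (0.504%). Tg female 4, the library with the lowest coverage, was lowest in Tg for Cacna1c introns (22.6%), Cacna1g exons (8.92%) and Cacna1h introns (2.61%).

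At the sites nearest a start, the animals set apart were Tg female 4 in Cacna1a (15.8%), Tg male 4 in Cacna1c (4.65%), the library labelled Wt male in Cacna1g (4.17%) and Tg male 2 in Cacna1i (15%). At named DMS, Tg female 3 stood low in Cacna1b chr2:24607603 (23.1%) and Cacna1i chr15:80383979 (76.5%) and high in Cacna1g chr11:94409377 (40%). Tg female 2 stood low in Cacna1c chr6:118802236 (74.2%) and Cacna1g chr11:94457151 (83.3%). At the sites with the largest spread, Wt female 1 stood high in Cacna1a (50%) and Cacna1e (66.7%), Tg female 1 high in Cacna1c (83.3%) and Tg female 4 low in Cacna1s (20%). Tg female 4 thus held 5 of the 18, and the part of its low depth in these values was not tested.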

How the results depend on the processing

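The 169 channel DMS became 10 with at least 25 points required (0.394%, against 0.479% of all sites), 54 with a minimum of 20 reads (3.33% against 1.85%), 49 among sites covered in all 12 libraries (3.52% against 1.72%), 111 with strands summed (6.6% against 5.08%), 9 with read counts halved (0.355% against 0.389%) and 0 with limma on logit levels (0 of all sites). Leaving out single animals gave 132 to 197, against 3.64% to 5.32% of all sites. The overdispersion model called 0 sites in these settings, limma aside. It was run on gene classes with no minimum difference, the other promoter, a minimum of 20 reads, sites covered in all 12 libraries and single animals left out, and called 0. Of 26 gene classes, 2 were called, and 15 with no minimum difference (57.7%, against 49.4% of all gene classes). With promoters of 1000 bp either side of a start 1 was called (4%, against 11.7%). Among sites covered in all 12 libraries it was also 1 (4.17%, against 6.47%). A minimum of 20 reads gave 0 (against 6.69%), and limma gave 0 (against 2 of all 39118). Of 115 stretches, 24 were called (20.9%, against 18%). Leaving out single animals gave 0 to 3 classes, against 9.52% to 14.8% of all gene classes. Class levels moved by 1 SD or more in 11 of 26 classes with sites weighted equally, 10 of 24 over sites covered in all 12 libraries, 8 of 25 with the other promoter and 12 of 23 with a minimum of 20 reads. With strands summed, the differences at Cacna1a chr8:84559662 and Cacna1e chr1:154799345 changed sign, to 0.26 and -0.26 points. The cause of these changes was not tested beyond the fewer sites or reads each setting holds. No paired analysis applied, because the Wt and Tg libraries came from different animals.

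With 4 Wt libraries, 1 of which goes against its sex label, and a median of 35 reads per site and animal, single-site differences are limited by the spread between animals. Even read counts predominate. Whether both reads of a pair were counted is not given in the sources used here, and the halved counts show only what would follow if they were.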
